A study of Mus musculus with 2 samples.

Results

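Lipid droplets are organelles in which a cell keeps triglyceride and cholesteryl ester under a single layer of phospholipid covered by coat proteins. The perilipins are the main coat proteins and control how far lipases reach the stored lipid, the diacylglycerol acyltransferases Dgat1 and Dgat2 make triglyceride, and adipose triglyceride lipase (Pnpla2), its activator Abhd5 and hormone-sensitive lipase (Lipe) break it down. Macrophages that take up lipoproteins fill with such droplets and become foam cells, in which Plin2 is the best known coat protein. The results below cover 10 genes of this system chosen by name: the coat genes Plin2, Plin3, Plin4, Plin5 and Cidec, the synthesis genes Dgat1 and Dgat2, and the lipolysis genes Pnpla2, Lipe and Abhd5. All 10 were found by symbol among the 50608 rows of the expression table.

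RNA came from peritoneal macrophages of C57BL6J mice, pooled from males and females, with a developmental stage given as E15.5 for both libraries. There was 1 library from macrophages treated with DMSO, the solvent, and 1 from macrophages treated with GW3965, an agonist of LXR (liver X receptor), the nuclear receptor pair that responds to oxidised cholesterol, with dose and duration not given in the sources used here, nor the number of mice. The comparison asks how transcript levels differ when LXR is activated, in a study whose title concerns macrophage cholesterol efflux. The column read as GW3965 was assigned by the first letters of its name, since its ending matches no label, and each statement on GW3965 depends on that match.

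Values are FPKM (fragments per kilobase of gene, scaled to sequencing depth), as deposited. Levels set side by side between genes rest on gene lengths that are not known. With 1 library per group there is no spread between replicates, no test and no p-value. Intervals beside a ratio are 95% exact conditional intervals from estimated reads and cover counting error only. The median ratio of the measured rows was 1.2465 with nothing added and 1.18 with 1 FPKM added to both values (0.24 on the log2 scale). A ratio said to be relative to the median row is the FPKM ratio divided by the first of these. A centred log2 ratio is the log2 of (GW3965 + 1)/(DMSO + 1) less 0.24. A row with a mean of at least 1 FPKM counted as measured, and a centred difference of 1.5-fold or more was called. In these bulk samples, a change in the number of cells of a type and a change in RNA per cell cannot be told apart.

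The DMSO library held an estimated 101866002 reads and the GW3965 library 75287058. General macrophage markers were present, with 10 of 10 measured, among them Cd68 at 235 and 238 FPKM with DMSO and GW3965. Their median centred log2 ratio was 0.09, with 1 called higher and 0 lower. The 1 was Mertk, at 6.79 and 13.9 FPKM, or 0.69 after centring. Of 8 markers of resident peritoneal macrophages, 1 was measured (Cxcl13, 1.23 and 1.56 FPKM), and the transcription factor Gata6 stood at 0.607 and 0.618 FPKM. A resident state is thus not borne out by these markers. They cannot decide the labelled site of origin, since they mark resident cells only. The stage given in the labels could not be checked. Of 12 known LXR targets fixed as a reference list, 10 were called higher and 0 lower, with a median centred log2 ratio of 1.58. Of all measured rows, 1.38% were called higher. The selection of these targets drew on earlier results of these data, so their high values were known in advance. The glycolytic gene Gapdh stood at only 5.92 and 6.02 FPKM, against 778 and 975 FPKM for the actin gene Actb, so the level of a row can lie far from what is usual for its gene.

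Promoter sequences are shown for 3 members: Plin2, the member with the largest difference in FPKM; Plin3, the next most abundant coat gene; and Pnpla2, the triglyceride lipase and the 1 member whose FPKM was lower in the GW3965 library. Each is the run of 250 bases before the RefSeq start site, from the GRCm38.p6 table, 5′ to 3′ on the strand of the gene. Capitals mark matches, on either strand, to the half-site of many nuclear receptors (AGGTCA), the CCAAT box, the TATA box (TATAAA), the GC box (GGGCGG) or the E-box (CACGTG). Plin2 lies at chr4:86670060-86670309 (minus strand), Plin3 at chr17:56290512-56290761 (minus strand) and Pnpla2 at chr7:141454938-141455187 (plus strand). The Plin3 window lies inside the span of that gene in the GENCODE annotation (56277476 to 56292873). It is thus upstream of the RefSeq start site but not of the GENCODE one.
Plin2: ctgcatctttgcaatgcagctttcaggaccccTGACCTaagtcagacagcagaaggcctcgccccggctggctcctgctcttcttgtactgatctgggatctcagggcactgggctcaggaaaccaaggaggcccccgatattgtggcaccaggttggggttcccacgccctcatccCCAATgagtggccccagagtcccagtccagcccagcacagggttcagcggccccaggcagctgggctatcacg
Plin3: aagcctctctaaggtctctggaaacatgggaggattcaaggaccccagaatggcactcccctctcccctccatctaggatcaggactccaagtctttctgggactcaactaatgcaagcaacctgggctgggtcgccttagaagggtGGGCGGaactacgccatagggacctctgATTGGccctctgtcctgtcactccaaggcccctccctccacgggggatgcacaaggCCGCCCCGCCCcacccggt
Pnpla2: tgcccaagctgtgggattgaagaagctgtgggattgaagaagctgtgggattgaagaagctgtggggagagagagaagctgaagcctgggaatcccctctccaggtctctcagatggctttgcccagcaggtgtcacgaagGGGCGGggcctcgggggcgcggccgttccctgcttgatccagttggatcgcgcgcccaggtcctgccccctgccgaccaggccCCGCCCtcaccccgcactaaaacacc

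In these windows Plin2 had 1 AGGTCA match and 1 CCAAT match, Plin3 had 1 CCAAT match and 3 GC boxes, the last 2 of them overlapping, and Pnpla2 had 2 GC boxes. Of 32851 mouse promoter windows of the same length, 14% held AGGTCA, 33.8% CCAAT, 12.4% TATAAA, 32.7% GGGCGG and 6.02% CACGTG. The paired site DR4, known as the LXR binding arrangement, was searched as any pair of half-sites (AGGTCA or its variants in which the first base is G, the third is T, or both) in 1 orientation with 4 bases between, and DR1, known for the peroxisome proliferator-activated receptors, with 1 base between. Windows with DR4 made up 0.067% and with DR1 0.164% of all windows. Promoter entries were found for 8 of the 10 genes, 11 entries in all, and none of the 11 held either pair. Among the other entries, AGGTCA was present once in 1 of the 2 Plin5 entries and once in that of Abhd5, so the half-site was not specific in these windows to the member that was called.

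Plin2 was the coat gene with the highest level in both libraries and the 1 member called between them. The protein, adipophilin, covers droplets in most cell types and is degraded when no droplet binds it. The gene spans 86648386 to 86670060 on the minus strand of chromosome 4 (GRCm38) and is protein-coding, with 3512 exonic bases. It stood at 224 FPKM with DMSO and 432 FPKM with GW3965, from an estimated 77885 and 111124 reads. GW3965 was the higher library by 208 FPKM, a ratio of 1.93 (1.91 to 1.95) as deposited and of 1.55 (1.53 to 1.56) relative to the median row.

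The centred log2 ratio of Plin2 was 0.70, rank 131 among 11889 measured rows. Of those rows, 1.38% were called higher and 0.336% lower on the centred scale, and 3.46% higher and 0.0757% lower as deposited. Among the 6 measured members the count was 1 higher and 0 lower on both scales, and at a 2-fold limit it was 0. The other 4 genes were not measured. With 1 FPKM added, such low values had little room to be called, so they say nothing here. By level, Plin2 was the row of rank 71 in DMSO and 40 in GW3965 among 19921 rows with a gene symbol that is neither Gm-numbered nor Rik. Of the 183 such rows with a mean of at least 100 FPKM, 6 were called higher, and Plin2 had the 5th highest ratio. Nearly all of its transcript sequence was its own, with 4 of 3471 distinct runs of 100 bases shared with another GENCODE gene, Gm12551.

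**Figure D1:**
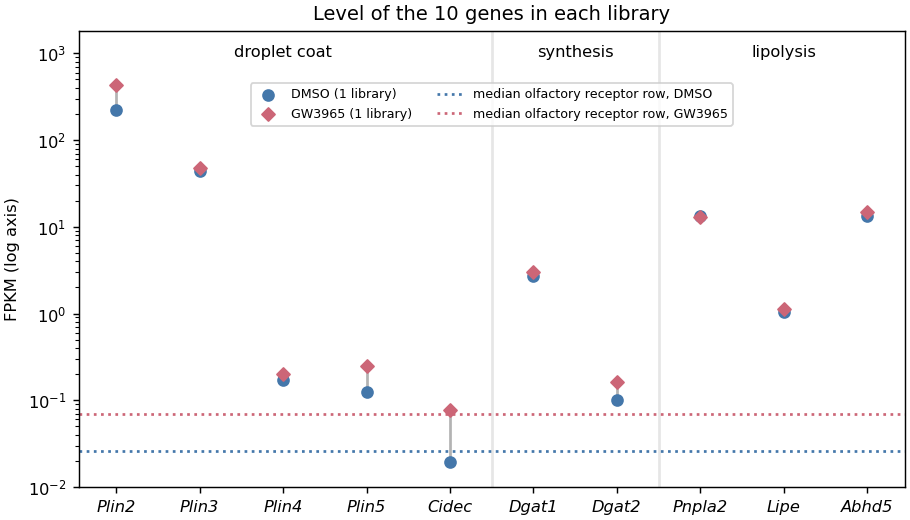
FPKM (log axis) of the 10 genes in the DMSO library (circles) and the GW3965 library (diamonds), with 1 library each and so no error bars; dotted lines give the median of 1108 olfactory receptor rows in each library. Plin2 stands at 224 and 432 FPKM, Plin3, Dgat1, Pnpla2, Lipe and Abhd5 have nearly superimposed points, and Cidec lies next to the dotted lines in both libraries.

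Plin3, the other abundant coat gene, was nearly level between the libraries. The protein (TIP47) is a soluble perilipin that moves onto nascent droplets. It had 44.3 FPKM with DMSO and 47.3 FPKM with GW3965, a ratio of 1.07 (1.04 to 1.09). Relative to the median row it was lower in GW3965, at 0.856 (0.837 to 0.876), with a centred log2 ratio of -0.15. Plin3 is on chromosome 17 (56277476 to 56292873, minus strand), in the same region as Plin4 (56100591 to 56109803) and Plin5 (56111601 to 56117596), both also on the minus strand. Plin4 and Plin5 are 1797 bases apart, and 159879 bases separate Plin5 from Plin3.

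The makeup of the perilipin transcripts followed from these values and does not depend on how the libraries are scaled. Plin2 made up 83.4% of the summed FPKM of Plin2 to Plin5 in DMSO and 90.1% in GW3965, a difference of 6.66 percentage points. Plin3 made up 16.5% and 9.85%. There were 5.06 FPKM of Plin2 for each FPKM of Plin3 in DMSO and 9.15 in GW3965. Plin4 and Plin5 together stayed a trace of the sum, with 0.0642% and 0.0457% in DMSO and 0.0416% and 0.0519% in GW3965.

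Plin4, Plin5 and Cidec were below 0.3 FPKM in both libraries. Plin4 and Cidec are coat genes known mainly from adipose tissue, where Cidec promotes the fusion of droplets, and Plin5 ties droplets to mitochondria in tissues that burn fat. Plin4 stood at 0.172 FPKM with DMSO and 0.200 FPKM with GW3965. Its values have the ratio of 83 to 71 reads, or 1.16 (0.831 to 1.61) after depth, so no difference was detectable at this depth. Plin5 stood at 0.123 and 0.249 FPKM, whose ratio is that of 2 to 3 reads. Estimated reads were 24 and 36, and the ratio after depth was 2.03 (1.18 to 3.56). Relative to the median row that interval ran from 0.945 to 2.85, so a difference beyond the overall shift was not detectable.

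Cidec was the member with the lowest level, at 0.0192 FPKM with DMSO and 0.0780 FPKM with GW3965. These values are in the ratio of 1 to 3 reads, with an estimated 3 and 9 reads. The ratio after depth was 4.06, the highest among the 10 genes, with an interval of 1.013 to 23.3, or 0.813 to 18.7 relative to the median row. Olfactory receptor genes, which are not known for a role in macrophages, had a median of 0.0262 FPKM with DMSO and 0.0687 FPKM with GW3965, a ratio of 2.62. Of these 1108 rows, 67.4% were at or above the value of Cidec in DMSO and 43.6% in GW3965, so Cidec could not be told from that background. For Plin5 1.44% and 1.17% of the olfactory receptor rows were at or above it, for Plin4 0.903% and 2.08%, and for Dgat2 1.99% and 4.96%. Low rows as a class were thus higher in the GW3965 library; the part of this in the ratios of Plin5, Cidec and Dgat2 was not tested.

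Of the synthesis genes, Dgat1 was measured and not called, and Dgat2 was below the limit for a measured row. Dgat1, the acyltransferase of the endoplasmic reticulum that acts on fatty acids from outside the cell and from lipolysis, had 2.74 FPKM with DMSO and 2.98 FPKM with GW3965, a ratio of 1.08 (0.978 to 1.20). Relative to the median row it was lower, at 0.870 (0.785 to 0.965). Dgat2, which also acts at the droplet surface and is tied to newly made fatty acids, had 0.101 and 0.162 FPKM, in the ratio of 11 to 13 reads. With an estimated 33 and 39 reads its ratio was 1.60 (0.980 to 2.62), or 1.28 (0.786 to 2.10) relative to the median row, so no difference was detectable at this depth. There were 27.1 FPKM of Dgat1 for each FPKM of Dgat2 in DMSO and 18.4 in GW3965, so Dgat1 had the higher FPKM of the pair in both libraries. Dgat1 is on chromosome 15 (76502015 to 76511953, minus strand), and Dgat2 is on chromosome 7 (99153658 to 99182719, minus strand).

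The lipolysis genes did not share the difference seen in Plin2. Pnpla2, which removes the first fatty acid of triglyceride, had 13.3 FPKM with DMSO and 12.8 FPKM with GW3965, a ratio of 0.965 (0.919 to 1.013). Its centred log2 ratio of -0.29 was the lowest among the 6 measured members and lay just below the central 90% of measured rows (-0.27 to 0.28). Relative to the median row its ratio was 0.774 (0.737 to 0.812), and scaling to the same sum of FPKM turned its log2 ratio to 0.20. Abhd5 (CGI-58), the protein that activates Pnpla2, had 13.2 and 14.8 FPKM, a ratio of 1.12 (1.08 to 1.15), or 0.896 (0.867 to 0.926) relative to the median row. The pair was near 1 to 1, with 0.996 FPKM of Abhd5 for each FPKM of Pnpla2 in DMSO and 1.15 in GW3965.

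Lipe, hormone-sensitive lipase, which acts on diacylglycerol and cholesteryl ester, was just above the limit for a measured row. It had 1.03 FPKM with DMSO and 1.14 FPKM with GW3965, a ratio of 1.10 (0.978 to 1.24), or 0.885 (0.785 to 0.998) relative to the median row. There were 12.9 FPKM of Pnpla2 for each FPKM of Lipe in DMSO and 11.3 in GW3965. Lipe (chromosome 7, 25379527 to 25398710, minus strand) shares 918 exonic bases with 4732471J01Rik on the opposite strand, and Abhd5 (chromosome 9, 122351608 to 122381524, plus strand) shares 950 with A730085K08Rik on the opposite strand. The strand setting of the counting is not known, so reads of those stretches cannot be assigned. Pnpla2 (chromosome 7, 141455198 to 141460743, plus strand) overlaps no other GENCODE gene.

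By role, the summed FPKM of the 5 coat genes was 269 in DMSO and 480 in GW3965, that of the 3 lipolysis genes 27.6 and 28.8, and that of the 2 synthesis genes 2.85 and 3.14. Nearly all of the difference in the coat sum was Plin2. There were 16.8 FPKM of Plin2 for each FPKM of Pnpla2 in DMSO and 33.7 in GW3965. As deposited, 9 of the 10 genes had the larger FPKM in the GW3965 library. With a median ratio of 1.2465, most measured rows did too, so this count does not set the members apart. Relative to the median row, 1 of the 6 measured members was above and 5 were below, where 50.0% of all measured rows are above by construction.

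**Figure D2:**
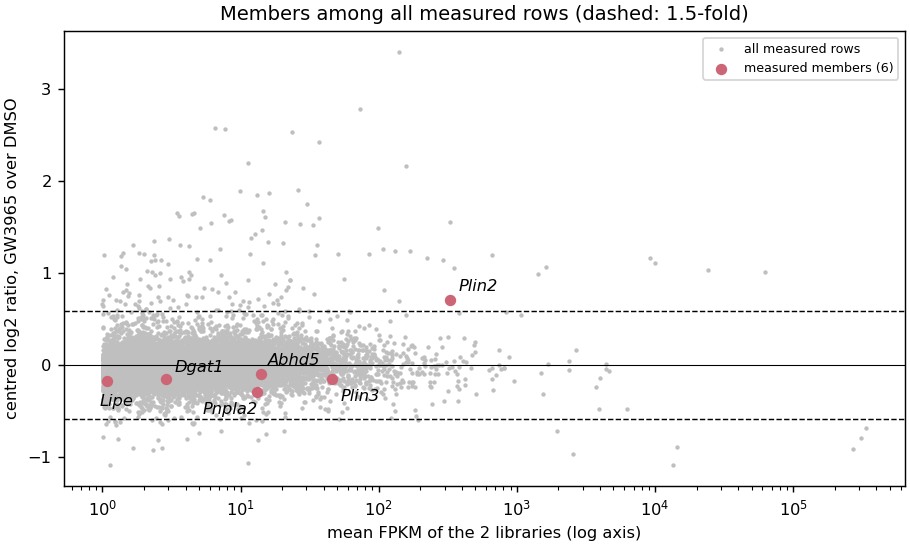
Centred log2 ratio (GW3965 over DMSO, 1 FPKM added) against mean FPKM (log axis) for the measured rows (grey) and the 6 measured members (red), with dashed lines at 1.5-fold. Plin2, at 0.70, is the 1 member outside the dashed lines, and the other 5 lie between -0.29 and -0.10, within the grey band.

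Other genes of the pathway, from lists not picked for how they moved but drawn up with earlier results known, gave the setting of these values. Of 20 other droplet proteins 13 were measured, and 0 were called higher or lower, with a median centred log2 ratio of 0.09. Those farthest from the median row included the droplet phospholipid enzyme Lpcat1 (5.03 and 7.32 FPKM), the lipid transfer protein gene Vps13a (4.43 and 6.54 FPKM) and Hilpda, an inhibitor of Pnpla2 (10.6 and 14.1 FPKM). The adipose coat gene Plin1 stood at 0.0267 and 0.0650 FPKM, next to the olfactory receptor median in each library.

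Of 21 genes of triglyceride synthesis and fatty acid activation 14 were measured, and 2 were called higher and 0 lower, with a median centred log2 ratio of 0.11. Both are acyl-CoA synthetases, which activate fatty acids before they are esterified. Acsl3, which sits on nascent droplets, had 5.56 FPKM with DMSO and 19.8 FPKM with GW3965, a ratio of 3.57 (3.40 to 3.74), or 1.42 after centring on the log2 scale. Acsl4, which prefers polyunsaturated fatty acids, stood at 22.1 and 45.7 FPKM, which is 2.06-fold (2.02 to 2.11), or 0.77 centred. Lpin1, the phosphatidate phosphatase that makes diacylglycerol, lay just inside the limit with 5.85 and 11.1 FPKM, or 0.58, and Gpam, the mitochondrial glycerol-3-phosphate acyltransferase, had 2.90 and 4.92 FPKM, or 0.36. As deposited, all 4 were past 1.5-fold. Dgat1, of the last step, was not called, and Dgat2 was not measured.

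Of 18 lipases and regulators of lipolysis 10 were measured, and 0 were called higher and 1 lower, with a median centred log2 ratio of -0.01. The 1 was Mgll, monoglyceride lipase, which releases the last fatty acid. It had 16.1 FPKM with DMSO and 10.5 FPKM with GW3965, a ratio of 0.655 (0.630 to 0.680), or -0.81 after centring on the log2 scale. As deposited its log2 ratio was -0.57, just short of the limit. The others stayed near the median row, among them the lysosomal acid lipase Lipa (435 and 569 FPKM, 0.15) and Prkaca, the catalytic subunit of the kinase that phosphorylates Lipe and perilipins (15.9 and 17.0 FPKM, -0.15). G0s2, a direct inhibitor of Pnpla2, was at 0.132 and 0.197 FPKM and not measured.

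Cholesteryl ester, the other lipid of macrophage droplets, is made by Soat1, which had 108.5 FPKM with DMSO and 122 FPKM with GW3965, a centred log2 ratio of -0.08. Its hydrolase Nceh1 had 77.9 and 98.4 FPKM, or 0.09. Of the 6 genes of this cycle 3 were measured and 0 were called.

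**Figure D3:**
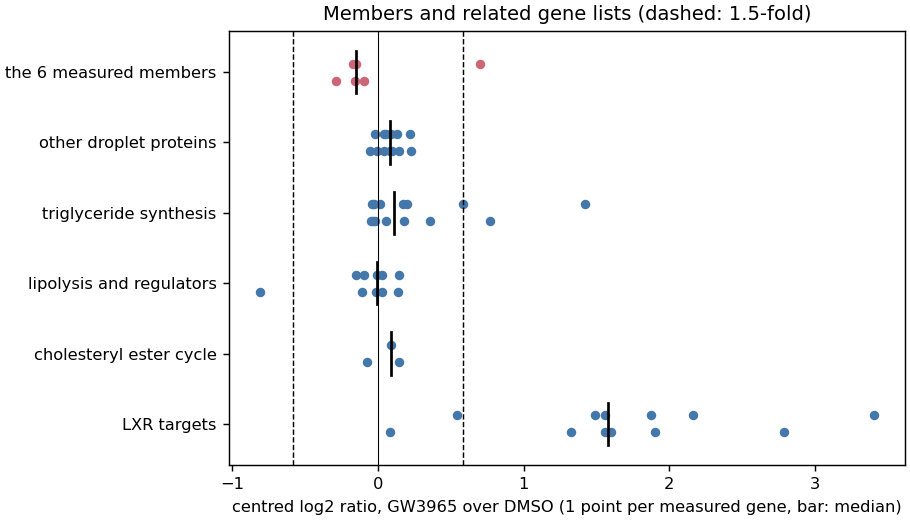
Centred log2 ratio (GW3965 over DMSO) of each measured gene in the 6 measured members (red) and in 5 related lists (blue), with a bar at each median and dashed lines at 1.5-fold. LXR targets, whose selection drew on earlier results of these data, lie mostly past the upper dashed line (median 1.58). The pathway lists centre between -0.01 and 0.11, with Acsl3 and Acsl4 above the upper line and Mgll below the lower one.

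Markers of cells other than macrophages were read beside these values. Of 14 adipocyte markers, a list that also holds Lipe, Cidec and Plin4, 3 were measured: Fabp4 (26.5 and 25.6 FPKM) and Pparg (23.7 and 26.9 FPKM), both known from macrophages too, and Lipe. The sum of the list was 51.8 FPKM with DMSO and 54.8 in GW3965, 0 markers were listed at 0, and the defining marker Adipoq stood at 0.0167 and 0.0678 FPKM. Mesothelial and fibroblast markers, 4 of 12 measured, summed to 16.6 FPKM with DMSO and 25.4 in GW3965, with Dcn at 6.91 and 11.6 FPKM. B cell markers, 4 of 7 measured, summed to 20.2 and 77.5 FPKM, of which Ighm made 9.26 and 64.4 FPKM. Striated muscle markers, where Plin5 is also known, had 0 of 7 measured and summed to 0.216 and 0.469 FPKM. Each of these sums was higher in the GW3965 library, as was the FPKM of most measured rows (median ratio 1.2465). Of the 4 measured B cell markers only Ighm was called (centred log2 ratio 2.43). The others, Cd79a, Cd79b and Cd22, lay between -0.11 and 0.11. Of the 4 measured mesothelial and fibroblast markers 0 were called. The part of such cells in the level of Plin2 was not tested.

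The rows nearest to Plin2 in level over the 2 libraries, by distance in log2(FPKM + 1), were Tmsb4x at 258 and 377 FPKM, the scavenger receptor gene Cd36 at 277 and 484 FPKM, and Creg1 at 245 and 333 FPKM. Their distances were 0.28, 0.34 and 0.40 on the log2 scale. None of these 3 was called, with centred log2 ratios of 0.30, 0.56 and 0.20 against 0.70 for Plin2. With 2 libraries this likeness covers 2 values per gene.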

How the data were processed

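RNA-seq of 2 mouse libraries (DMSO and GW3965, 1 each) was analysed from the FPKM table the authors deposited. STAR 2.3.0, HTSeq 0.5.4p3 and GRCm38 (mm10) are named in the submitters' processing notes, with no role; for annotation, strand setting and filters, nothing is stated in the sources read. The members, lists and rules were chosen with earlier results of these data known.

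Ratios used log2(FPKM + 1), centred on the median of rows with a mean of at least 1 FPKM; FPKM ratios with nothing added were set against the median ratio of the same rows. Depth came from the steps of low values: with a factor of 1.35 between libraries, 96.2% of 23394 low rows could be written as fractions of whole reads (denominator at most 60, tolerance set by the sixth decimal), against 0.710% with the factor moved by 1%. GENCODE M21 exon lengths less 99 bases then gave the depth, on which 227 of 8697 rows fell together, against 69 at the next best reduction. The authors' gene lengths are unknown, so reads are estimates. Intervals are exact conditional (Clopper-Pearson). PCR copies were not separable, so intervals cover counting error only. The factor, depth and intervals were tested on simulated data. Those data were drawn with the same gene lengths and counting error that the method assumes. The simulation therefore cannot show that these assumptions hold for the deposited values.

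All 10 members are named, and up to 4 measured genes of each list with the largest absolute centred ratio; Gata6, Plin1, G0s2, Adipoq, Gapdh and Actb were named after their values were seen. The 11 lists held 135 entries. Alternatives were pseudocounts, filters, scalings and fold limits. Promoter sequences are from RefSeq on GRCm38.p6. Calculations used scipy 1.17.1, pandas 2.3.3 and numpy 2.4.6 in Python 3.11.15, and matplotlib 3.10.9 for plots.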

Additional observations from a re-analysis of the deposited data

How the results depend on the processing

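No paired analysis was possible because neither group has a second library. Plin2 was called higher under each of the alternatives except a 2-fold limit, where the count of members higher was 0 in place of 1, and its centred log2 ratio ran from 0.64 to 1.21. No member was called lower under any alternative. The other 9 genes changed sign in at least 1 alternative, and all 9 were above 0 with the same sum of FPKM. Pnpla2 ran from -0.36 to 0.20 and was above 0 only with that scaling. Plin3 ran from -0.22 to 0.35. Plin3, Dgat1, Lipe and Abhd5 were above 0 as deposited, with the same sum or with no filter on low values. With a pseudocount of 0.1, Cidec (0.27), Plin5 (0.34) and Dgat2 (0.07) were also above 0, and Plin4 was not. Of 90 member values, 66 stayed within the counting interval and 24 did not. All values of Plin4, Plin5, Cidec and Dgat2 stayed within it, but their few reads make the interval wide, so this shows little about stability. A reversal was possible only for a called member, and Plin2, the 1 called, had 0. With the main settings 164 of 11889 measured rows were higher (1.38%) and 40 lower (0.336%). Of the same rows, the counts were 264 and 114 with a pseudocount of 0.1, and 411 and 9 as deposited. They were 2604 and 1 with the same sum of FPKM, 80 and 3 at a 2-fold limit, and 443 and 355 at the laxer fold limit. With a pseudocount of 0.5, 62 rows were lower (0.521%). Other alternatives changed the set of rows. At a mean of at least 5 FPKM, 87 (1.72%) and 22 (0.435%) of 5053 rows were higher and lower. Among protein-coding rows, an alternative chosen after seeing the data, it was 96 (1.1%) and 18 (0.207%) of 8705. With no filter on low values 337 of 50608 rows were higher (0.666%). Of 89 list medians 85 kept their side of 1.5-fold. With the same sum of FPKM the medians of the cholesteryl ester (0.60), macrophage (0.59) and mesothelial and fibroblast (0.70) lists went past it. At a mean of at least 5 FPKM that of the B cell markers did (1.14), resting on fewer genes. The cause was not tested for the rest. Adding Plin1 left the change in the share of Plin2 at 6.66 points. Depth limits the 4 genes below 0.3 FPKM, where 1 read per kilobase corresponds to 0.00982 FPKM for DMSO and 0.0133 for GW3965.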
